A study of Zea mays with 6 samples.

Results

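The chromatin modifiers and remodelers of maize were followed in RNA-seq data from leaves of Zea mays seedlings of the inbred line B73. They were taken from the deposited gene descriptions, as every gene described as a histone acetyltransferase, histone deacetylase, SET domain or other histone methyltransferase, demethylase, DNA methyltransferase or chromomethylase, bromodomain, polycomb or argonaute protein, nucleosome or chromatin factor, or high mobility group (HMG) protein. This gave 51 of 39634 listed genes. The words were matched to the deposited descriptions and used no expression value, and 19801 genes carry no description, so chromatin genes without one are not among the 51. None of the 51 is described as an argonaute.

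The leaves came from watered plants (W) and from plants air-dried once for 2 h (S1). Others came from plants air-dried for the third time (S3), with 22 h of full re-watering after each earlier drying. The labels give a growth temperature of 22 °C for all 6 libraries. S3 leaves were taken later than S1 leaves, so repeated drying cannot be told apart from seedling age or time out of soil. Each condition had 2 libraries from separate biological samples. The study used several plants per treatment point and does not state how they were divided between libraries. All 6 libraries share the genotype and tissue, with no mutant or transgene. Every gene has 1 deposited FPKM value per library, the fragments mapped to a gene scaled by transcript length and library size, which sum to between 568731 and 672411 per library and keep no read counts. In bulk leaf RNA, fewer cells of a type and less RNA per cell cannot be told apart.

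In chromatin, DNA is wound around histone octamers to form nucleosomes. Acetylation of histone tails by acetyltransferases is generally linked to open, transcribed chromatin and is removed by deacetylases, while methyl groups are placed by SET domain proteins, are removed by demethylases, and mark active or silent genes depending on the residue. Polycomb complexes place a repressive methyl mark through Enhancer of zeste proteins, DNA methyltransferases maintain silent DNA, and chaperones such as FACT and the chromatin assembly factors take nucleosomes apart and rebuild them. In plants, persistent histone marks on stress genes are one of the ways in which an earlier stress has been proposed to affect a later one.

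Of the 51 genes, 47 had at least 1 FPKM in at least 2 libraries and were tested. The 4 others lay below this limit. The gene for the Polycomb protein FIE1 (fie1, GRMZM2G118205), known as an endosperm gene, was listed at 0 in all 6 libraries. The chromatin complex gene cha101 (GRMZM2G177165) lay between 0.0195 and 0.1 FPKM, the factor D gene nfd106 (GRMZM2G125648) between 0 and 0.0893, and nfd101 (GRMZM2G066528) between 0.183 and 0.66.

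The 47 tested genes were for the most part moderately expressed. Their median level, as the mean FPKM over the 6 libraries, was 14.3, compared with 9.82 for all 20130 tested genes, and 28 of the 47 lay above the latter value. MNB1B (GRMZM5G834758), an abundant HMG-box protein that binds DNA with little sequence preference, stood apart at 1019.5 FPKM, above 99.7% of all tested genes. The next levels were 72.6 FPKM for the deacetylase gene hdt102 and 69.2 for nfd102. At the low end were the deacetylase gene hda106 (1.18 FPKM) and the chromomethylase gene met5 (1.39 FPKM). FPKM are scaled by transcript length, so these levels can be set side by side between genes.

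**Figure D1:**
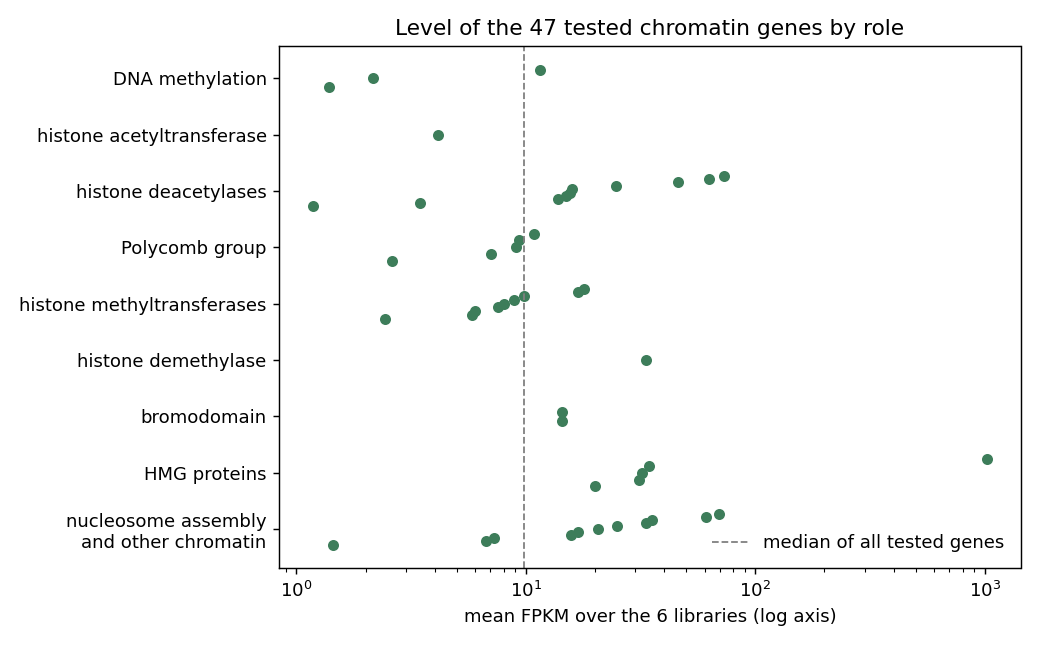
Mean FPKM over the 6 libraries (log axis) for each of the 47 tested chromatin genes, 1 point per gene, in rows by role. The dashed line is the median of all tested genes, 9.82 FPKM. MNB1B, at 1019.5 FPKM, lies far to the right of all others, and most deacetylase and nucleosome assembly genes lie to the right of the line.

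Differences were tested with limma on log2(FPKM + 1) over all tested genes, with Benjamini-Hochberg adjustment, and all fold changes below are on this log2 scale, which understates changes at low FPKM. A gene was called at an adjusted p of at most 0.05 and a change of at least 1 log2 unit. The first dehydration asks which of these genes respond to stress, the S3 and S1 comparison whether a repeated stress gives another level, and the S3 and W comparison where the level then lies against watered leaves.

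The first dehydration left transcripts of most chromatin genes near their watered level. Of the 47 tested genes, 2 were called, both higher in S1 than in W, compared with 9.04% of all tested genes called and 7.51% called higher. These 2 were a gene described as a lysine-specific histone demethylase, which rose 8.3-fold in mean FPKM, and the Enhancer of zeste gene mez1. No member was called lower, where 1.54% of all tested genes were. For 42 of the 47 genes (89.4%) the 95% interval lay within 1 log2 unit of no change on the log2(FPKM + 1) scale. The share was 71.5% of all tested genes. At low FPKM this does not bound the FPKM ratio: hda106 is among the 42, with mean FPKM 2.49-fold lower in S1 than in W. The median level was 14.3 FPKM for the members and 9.82 for all tested genes, and its part in the difference between the shares was not tested. The median log2 fold change of the 47 was -0.10, against -0.01 for all tested genes.

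From S1 to S3, 4 of the 47 genes were called, where 18.4% of all tested genes were. The demethylase gene and mez1 fell, and a second Enhancer of zeste gene, mez2, and the HMG-like factor D gene nfd104 rose. Calls higher made up 9.17% and calls lower 9.22% of all tested genes. The 95% interval lay within 2-fold for 36 members (76.6%), compared with 58.2% of all tested genes. The median change of the members, 0.13, was close to that of all tested genes, 0.11.

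In S3 against W, 3 of the 47 genes were called, all higher, where 22.0% of all tested genes were called, 13.3% higher and 8.70% lower. These were nfd104, mez2 and the demethylase gene. The 95% interval lay within 1 log2 unit of no change on the same scale for 41 members (87.2%), compared with 55.9% of all tested genes. Combining the first 2 comparisons as the study did, with the sign of S1 against W first and that of S3 against S1 second, 2 members were [+/-] (2.64% of all tested genes), 2 were [=/+] (8.33%) and 43 were called in neither (76.4%). None was [+/=] (4.21%), [+/+] (0.661%), [=/-] (6.25%), [-/=] (1.03%), [-/-] (0.328%) or [-/+] (0.179%).

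**Figure D2:**
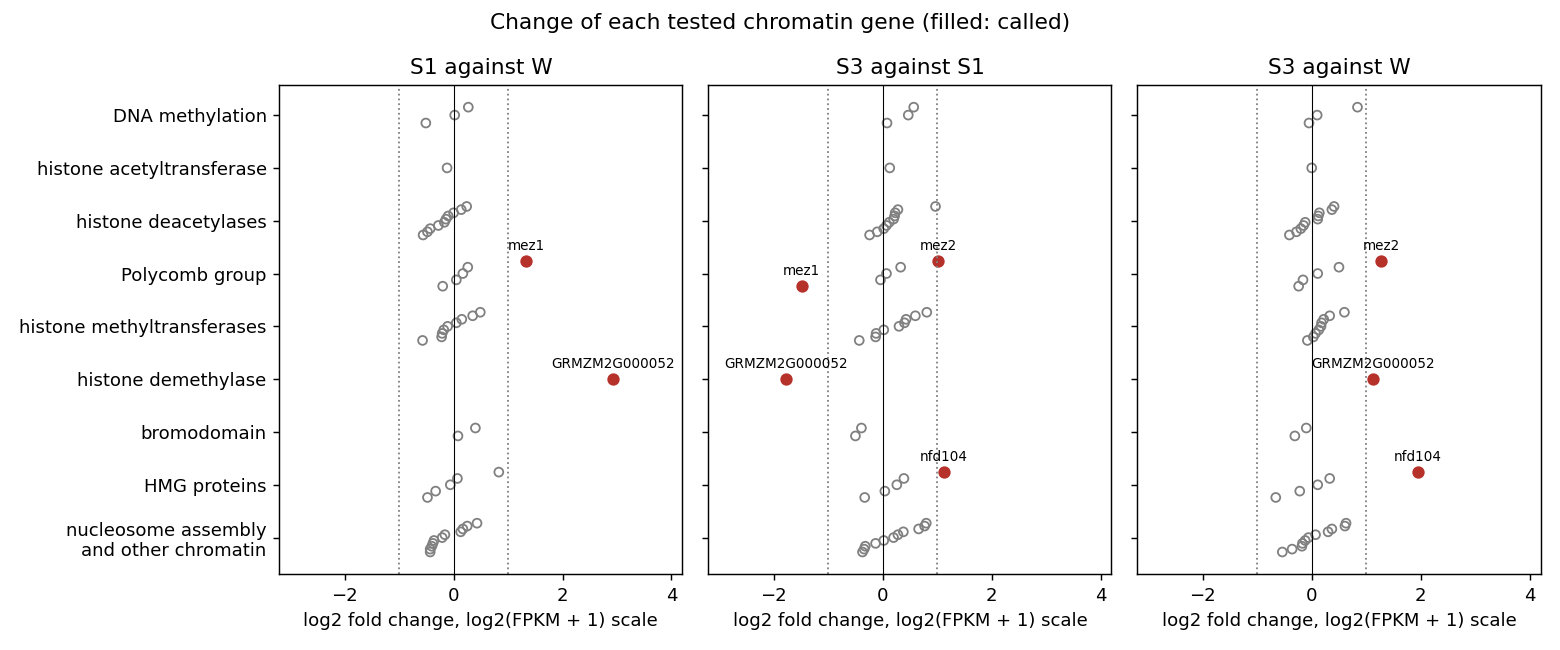
Log2 fold change of each of the 47 tested chromatin genes on the log2(FPKM + 1) scale, in rows by role, with a panel for each comparison. The dotted lines mark 1 log2 unit to either side and filled points are called genes. Most open points lie between the dotted lines in each panel, and the called genes are GRMZM2G000052, mez1, mez2 and nfd104.

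Among the histone demethylases the rule found 1 gene, GRMZM2G000052, described as lysine-specific histone demethylase 1. Its identity as such an enzyme rests on that description and was not tested. Enzymes of this family, known from animals and Arabidopsis, use a flavin cofactor to take methyl groups off histone H3. Its FPKM were 9.54 and 7.72 in watered leaves, 78.1 and 65.1 at S1 and 19.4 and 20.7 at S3. Every S1 library lay above every other library, and both S3 libraries lay above both W libraries. The log2 change was 2.92 in S1 against W (SE 0.17, limma adjusted p = 7.1e-05), -1.78 in S3 against S1 (SE 0.17, adjusted p = 0.000382) and 1.13 in S3 against W (SE 0.17, adjusted p = 0.00165). Mean FPKM in S3 were thus 3.57-fold lower than in S1 and 2.32-fold higher than in W. Across all alternatives tried, the rise in S1 was between 2.76 and 3.05 and the fall from S1 to S3 between -1.92 and -1.65, and both remained called. The S3 level against W is less certain: the log2 fold change was 0.92 with upper-quartile scaling or quantile normalization and 0.98 with median-of-ratios scaling, below the 2-fold limit though with adjusted p of 0.00517, 0.00586 and 0.00357. Without replicate 2 of W it also came just below that limit (adjusted p = 0.0167).

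The Polycomb role, given by words in the descriptions, held 6 genes, and 5 were tested. Enhancer of zeste proteins are the catalytic subunits of Polycomb repressive complex, and maize has the genes mez1, mez2 and mez3. In W, mez1 (GRMZM2G157820) lay at 2 and 0.936 FPKM, mez2 (GRMZM5G875502) at 6.78 and 6.49, and mez3 (GRMZM2G043484) at 7.36 and 7.66.

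At S1, mez1 rose to 6.34 and 4 FPKM, above both W libraries, and at S3 it was back at 0.713 and 1.71 FPKM, overlapping W. The log2 change was 1.33 in S1 against W (SE 0.32, limma adjusted p = 0.0284) and -1.49 in S3 against S1 (SE 0.32, adjusted p = 0.00923), and S3 against W gave -0.16 with a 95% interval from -0.90 to 0.57. Of the called genes it has the lowest level. Its S1 call was lost without replicate 2 of W (adjusted p = 0.134), without replicate 1 of S1 (0.152), without replicate 2 of S1 (0.058) and with no filter on low values (0.0928), and the fall to S3 was lost without replicate 1 of S1 (0.0655).

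The levels of mez2 were 8.75 and 7.52 FPKM at S1 and 16.1 and 19 at S3, so that both S3 libraries lay above the other 4. Its log2 change was 0.26 in S1 against W (limma adjusted p = 0.332), 1.02 in S3 against S1 (SE 0.16, adjusted p = 0.0028) and 1.28 in S3 against W (SE 0.16, adjusted p = 0.000782). The S3 against S1 change sat at the 2-fold limit and was below it, at 0.89 to 0.92, with the 3 other scalings, at 0.95 with a pseudocount of 2, at 0.93 without replicate 2 of S1 and at 0.91 without replicate 2 of S3. In each of these the adjusted p stayed at or under 0.0238. The rise over W was called under every alternative, between 1.07 and 1.39.

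In mez3 the conditions were in the same order as in mez2, with 8.27 and 8.89 FPKM at S1 and 9.58 and 12.8 at S3. Its log2 fold change in S3 against W was 0.50 (SE 0.18, limma adjusted p = 0.0529), with a 95% interval from 0.09 to 0.91, and it was not called. The summed FPKM of the 3 genes were 16.1 and 15.1 in watered leaves, 23.4 and 20.4 at S1 and 26.4 and 33.5 at S3. Related genes such as mez2 and mez3, or the HD2-type and HMG genes below, resemble each other in sequence, and reads may have been divided between them in the deposited values, which was not tested.

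Neither of the other 2 tested genes placed in this role by their descriptions was called. The gene for the WD40 subunit FIE2 (fie2, GRMZM2G148924) had 10.4 and 10.4 FPKM in watered leaves, 7.98 and 9.98 at S1 and 7.72 and 9.7 at S3, so that both stressed conditions lay below W, with log2 changes of -0.20 at S1 and -0.24 at S3 (95% interval from -0.65 to 0.18). The enhancer of polycomb-like gene epl101 (GRMZM2G110548), whose animal and yeast relatives belong to a histone acetyltransferase complex, ranged from 6.56 to 7.6 FPKM over all 6 libraries. For epl101 the 95% interval of S3 against W, from -0.24 to 0.46, lay within 2-fold.

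**Figure D3:**
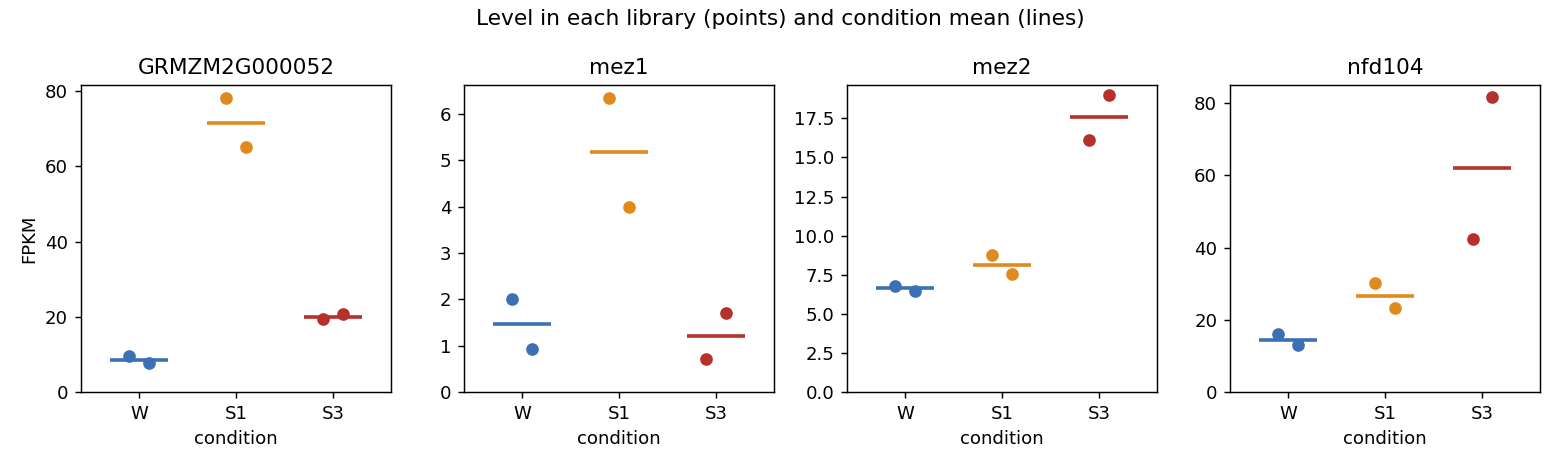
FPKM of the 4 called chromatin genes in each library (points) and the mean of each condition (lines), with a linear axis from 0 in each panel. GRMZM2G000052 and mez1 are highest in S1, and mez2 and nfd104 are highest in S3, where the replicates of nfd104 lie at 42.4 and 81.6 FPKM.

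HMG proteins bend DNA and loosen its contact with nucleosomes. Of 6 genes with this word in their description 5 were tested, and 1 was called. The HMG-like factor D gene nfd104 (GRMZM2G013821) had 16 and 13.1 FPKM in watered leaves, 30.1 and 23.3 at S1 and 42.4 and 81.6 at S3. The 3 conditions did not overlap, and the S3 replicates differed most. Its log2 change was 0.83 in S1 against W (SE 0.30, limma adjusted p = 0.105), 1.12 in S3 against S1 (SE 0.30, adjusted p = 0.022) and 1.95 in S3 against W (SE 0.30, adjusted p = 0.00181).

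The rise of nfd104 over W was called under each alternative, between 1.49 and 2.42. The step from S1 to S3 was not: without replicate 2 of S3 it was 0.66 (adjusted p = 0.0635), without replicate 1 of S1 it was 1.30 (0.0554), without replicate 2 of S1 it was 0.95 (0.123), with no filter on low values the adjusted p was 0.0635, and with median-of-ratios scaling the change was 0.99.

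No other HMG gene was called. MNB1B had 1316.2 and 1068.8 FPKM in watered leaves, 809 and 889 at S1 and 1070.1 and 964 at S3, and its log2 fold change in S1 against W was -0.48 (SE 0.28, limma adjusted p = 0.288), although both S1 libraries lay below all others. For S3 against S1 its value was 0.26, and 0.84 (adjusted p = 0.0235) after quantile normalization, which also turned its uncalled value in S3 against W from -0.22 to 0.45. The related gene nfd102 (GRMZM2G145968), a factor D gene grouped by its description with nucleosome assembly, followed the same order, with 86 and 68.1 FPKM in watered leaves, 53 and 60.2 at S1 and 67.8 and 79.9 at S3. The HMG1/2-like gene GRMZM2G024247 was lower in S3, with 26.1 and 23.5 FPKM in watered leaves and 13.7 and 17.2 at S3, a change of -0.66 (SE 0.19, limma adjusted p = 0.028) that stays short of the 2-fold limit. The gene for the AT-hook protein HMG I/Y (ZmHMGA, GRMZM2G106133) lay between 28.2 and 39.2 FPKM and hmg3 (GRMZM2G156785) between 24.4 and 36.2.

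Histone deacetylases comprised 10 genes, all tested and none called in any comparison. In S1 8 of the 10 had a lower mean than in W, as did 26 of all 47 tested members. The 8 include hda102, which was level, at a log2 fold change of -0.00 and a mean of 15.4 FPKM in both conditions. The median log2 fold change of the deacetylases was -0.16, against -0.01 for all tested genes, with a range from -0.56 to 0.24. From S1 to S3 8 of the 10 were higher, as were 32 of the 47 members. The deacetylase median was 0.16, against 0.11 for all tested genes. The 2 deacetylase counts share the S1 libraries.

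The RPD3-type enzymes, the class named after the yeast deacetylase Rpd3, stayed near their watered level. The gene hda101 (GRMZM2G172883) ranged from 53.2 to 70.9 FPKM over the 6 libraries, hda102 (GRMZM2G119703) from 14.9 to 18.8, HDA108 (GRMZM2G136067) from 12.2 to 14.8 and Hda1 (GRMZM2G457889) from 19.6 to 30. The largest of their 12 log2 fold changes was 0.37, for Hda1 in S3 against W (SE 0.16, limma adjusted p = 0.0981). Summed over the 4 genes, FPKM were 114 and 115 in watered leaves, 105 and 117 at S1 and 119 and 134 at S3.

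HD2-type deacetylases are found in plants and not in animals. Among them hdt102 (GRMZM2G100146) had 83.4 and 77.9 FPKM in watered leaves, 68.6 and 64.1 at S1 and 59.5 and 82 at S3. Its close relative hdt103 (GRMZM2G159032) had 53.1 and 51 FPKM in watered leaves, 48.2 and 43.9 at S1 and 34.8 and 43.6 at S3, a log2 fold change of -0.41 in S3 against W (SE 0.17, limma adjusted p = 0.0876). The last gene, hda106 (GRMZM2G057044), had another pattern at a much lower level, with 1.45 and 0.914 FPKM in watered leaves, 0.405 and 0.546 at S1 and 1.85 and 1.9 at S3. All 3 conditions of hda106 were apart, and S3 against S1 gave 0.97 (SE 0.19, limma adjusted p = 0.0067), just short of the limit of 1. Its mean FPKM were 3.95-fold higher in S3 than in S1, at low levels where this scale understates changes. With a pseudocount of 0.1, which understates low genes less, the log2 change was 1.79 (limma adjusted p = 0.00656) and was called. Without replicate 2 of S1 the change was 1.03.

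The other deacetylase genes were also not called. Histone deacetylase 11 (GRMZM2G008425) lay at 18.3 and 17.5 FPKM in watered leaves and 11.9 and 13.1 at S1, a log2 fold change of -0.48 (SE 0.15, limma adjusted p = 0.0703). Histone deacetylase 10 (GRMZM2G456473) lay between 2.7 and 4.88 FPKM, and hda110 (GRMZM2G107309) between 13 and 17.

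A single histone acetyltransferase gene was found, hac106 (GRMZM5G851405), for the catalytic subunit of the type B enzyme that acetylates new histones before their assembly. It ranged from 3.71 to 4.57 FPKM, and its log2 fold changes were -0.12 in S1 against W, 0.13 in S3 against S1 and 0.00 in S3 against W, the last with a 95% interval from -0.38 to 0.39.

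**Figure D4:**
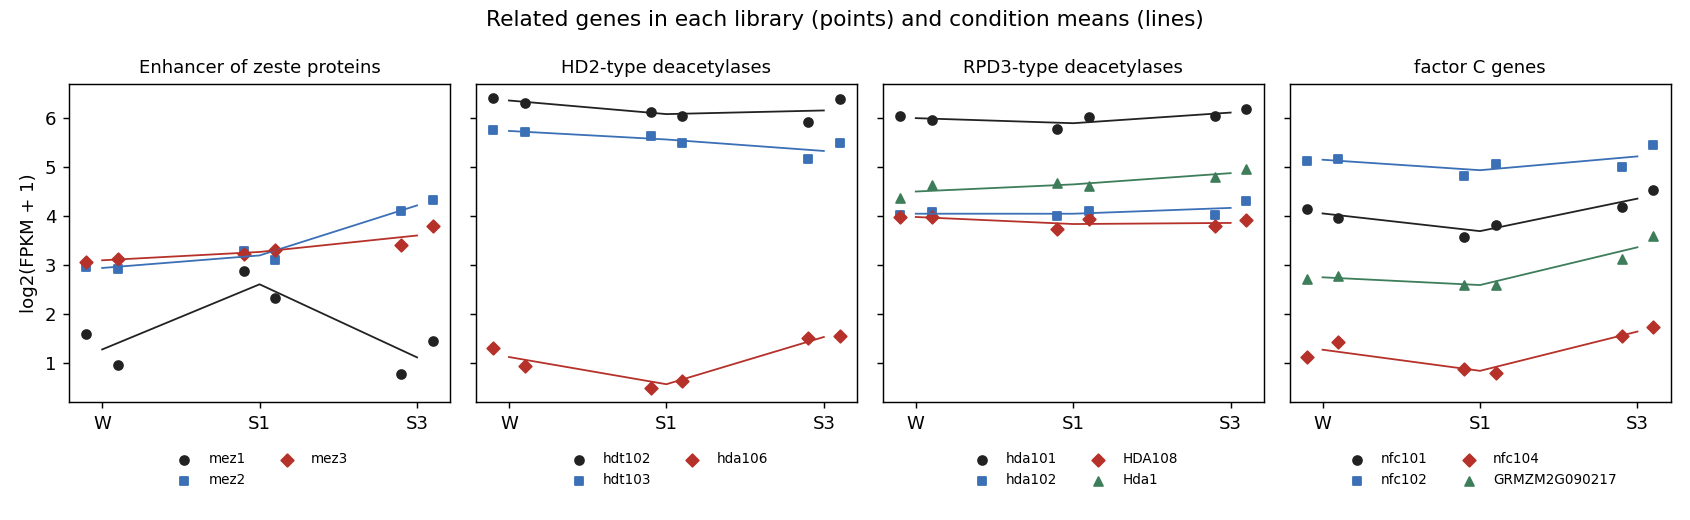
log2(FPKM + 1) of related genes in each library (points) and condition means (lines) for the Enhancer of zeste, HD2-type, RPD3-type and factor C genes. The RPD3-type lines are nearly flat, mez1 peaks in S1, and hda106 and all 4 factor C genes are lowest in S1.

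Histone methyltransferases outside the Polycomb group comprised 9 genes, of which 9 were tested and none was called. They include SET domain proteins and the arginine methyltransferase CARM1, which has another type of catalytic domain. Median log2 fold changes were -0.11 in S1 against W, 0.30 in S3 against S1 and 0.17 in S3 against W. For all tested genes they were -0.01, 0.11 and 0.16. The smallest adjusted p was that of SDG123 (GRMZM2G080462), at 5.49 and 4.93 FPKM in watered leaves, 4.29 and 4.38 at S1 and 8.5 and 8.26 at S3. Both S3 libraries lay above the other 4, by 0.81 over S1 (SE 0.15, limma adjusted p = 0.00558) and by 0.60 over W (SE 0.15, adjusted p = 0.0171), which is under 2-fold.

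SET102 (GRMZM2G147619) had its lowest libraries at S1, with 6.88 and 6.3 FPKM in watered leaves, 4.17 and 4.02 at S1 and 7.51 and 6.04 at S3. Its S1 against W value was -0.57 (SE 0.17, limma adjusted p = 0.0561) and its S3 against S1 value 0.60 (adjusted p = 0.0257). SET104 (GRMZM2G021044) stayed between 6.48 and 9.1 FPKM and SDG111 (GRMZM2G117458) between 13.1 and 20.8. The H3 lysine methyltransferase GRMZM2G033694 lay between 6.9 and 11 FPKM, SDG117 (GRMZM2G172427) between 7.44 and 12, the SET domain gene GRMZM2G063316 between 6.75 and 9.15, the SUVR3 gene (GRMZM2G105869) between 1.5 and 3.92, and the CARM1 gene (GRMZM2G057448), the most abundant of these, between 14.4 and 20.3. The SUVR3 gene had the widest interval, from -0.15 to 1.14 in S1 against W, which reaches past 2-fold.

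Chromomethylases keep methylation at non-CG sites of DNA. Both genes were expressed at low levels, met2 (GRMZM2G025592) at 1.91 and 2.2 FPKM in watered leaves, 2.15 and 2.03 at S1 and 1.76 and 2.89 at S3, and met5 (GRMZM2G005310) at 1.6 and 1.77 in watered leaves, 0.736 and 1.04 at S1 and 1.83 and 1.39 at S3. For met5 both S1 libraries lay below all others, with log2 changes of -0.51 in S1 against W (SE 0.18, limma adjusted p = 0.104) and of 0.47 from S1 to S3 (adjusted p = 0.0835), neither of which was called. GRMZM2G159155, described as DNA methyltransferase 1-associated protein 1, is an interacting protein rather than an enzyme of DNA methylation. It had 8.14 and 8.49 FPKM in watered leaves, 9.05 and 11.6 at S1 and 13 and 18.9 at S3, without overlap between conditions. Its S3 against W value, 0.84 (SE 0.21, limma adjusted p = 0.0153), was called only without replicate 1 of S3, at 1.09, or with no fold-change threshold.

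Bromodomain proteins bind acetylated histone tails. The gene brd103 (GRMZM2G040079) had 11.3 and 15 FPKM in watered leaves, 17 and 18.1 at S1 and 10.3 and 14.1 at S3, with log2 fold changes of 0.40 (SE 0.20, limma adjusted p = 0.226) and -0.50 (adjusted p = 0.0879) for the 2 steps. GRMZM2G396846 lay between 10.6 and 17 FPKM. Neither was called.

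Nucleosome assembly and other chromatin proteins formed the largest role, with 13 genes, of which 11 were tested and none was called. Factor C proteins are WD40 histone-binding proteins of the MSI type, which serve in chromatin assembly, deacetylase and Polycomb complexes. All 4 factor C genes had their lowest mean in S1 and their highest in S3. The gene nfc101 (GRMZM2G137965) had 16.7 and 14.4 FPKM in watered leaves, 10.8 and 13 at S1 and 17.1 and 21.9 at S3, and nfc104 (GRMZM2G032711) 1.16 and 1.67 in watered leaves, 0.83 and 0.734 at S1 and 1.93 and 2.29 at S3.

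In S3 against S1 the log2 changes were 0.66 for nfc101 (limma adjusted p = 0.0255), 0.80 for nfc104 (adjusted p = 0.0128), 0.77 for GRMZM2G090217 (adjusted p = 0.0164), the MSI-type gene at 4.96 and 5.03 FPKM at S1 and 7.72 and 11 at S3, and 0.28 for nfc102 (GRMZM2G316113, adjusted p = 0.28). Each is under the limit of 1 on the log2(FPKM + 1) scale, although the mean FPKM of nfc104 were 2.7-fold higher in S3 than in S1. With a pseudocount of 0.1 nfc104 reached 1.32 (adjusted p = 0.0133) and was called. Summed over the 4 genes, FPKM were 57.1 and 56.8 in watered leaves, 43.5 and 51 at S1 and 57.5 and 77.4 at S3, so that the second S3 library carries much of the higher S3 sum.

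Factor A proteins are histone chaperones of the NAP type, and both of their genes had their highest mean in W. The gene nfa101 (GRMZM2G140051) had 42.1 and 45.3 FPKM in watered leaves, 34.7 and 30.9 at S1 and 25.1 and 35.2 at S3, with -0.54 in S3 against W (SE 0.19, limma adjusted p = 0.0569). For nfa104 (GRMZM2G075637) the values were 30.2 and 28.5 in watered leaves, 24.4 and 20.5 at S1 and 18.9 and 27.1 at S3. Neither was called. The FACT complex, which lets RNA polymerase pass nucleosomes, is made of SPT16 and SSRP1. SPT16 (GRMZM5G806358) had 19.2 and 21.8 FPKM in watered leaves, 22.6 and 23.9 at S1 and 16 and 20.4 at S3, and ssrp1 (GRMZM2G032252) had 63.1 and 58.9, 62.3 and 72, and 46.7 and 61.4 in the same order. Their changes were nearly equal in each comparison, at 0.17 and 0.13, -0.34 and -0.32, and -0.17 and -0.18, and none was called.

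The chromatin complex subunit A gene chr122 (GRMZM2G097289) had 12.6 and 13 FPKM in watered leaves, 17.1 and 18 at S1 and 19.1 and 21.6 at S3, without overlap. Its log2 change was 0.43 in S1 against W (SE 0.15, limma adjusted p = 0.0903) and 0.63 in S3 against W (SE 0.15, adjusted p = 0.0118). The related gene chr124 (GRMZM2G130739) lay between 5.51 and 9.29 FPKM, with overlap between W and the other conditions.

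With the fold-change threshold dropped, 2 members passed the adjusted p limit in S1 against W (16.0% of all tested genes did), 10 in S3 against S1 (37.1%) and 8 in S3 against W (41.1%). At an unadjusted p under 0.05 the members were 9, 16 and 12 (19.1%, 34% and 25.5%), compared with 31.1%, 47.6% and 50.4% of all tested genes. Of the 10 from S1 to S3, 8 were higher in S3, as were 58.7% of all genes past the same limit. Both libraries of S1 lay below both of W for 23 of the 47 genes (48.9%, compared with 31.7% of all tested genes) and above them for 13 (27.7%, compared with 31.6%). From S1 to S3 both libraries lay higher for 23 genes (48.9%, compared with 42.1%) and lower for 8 (17%, compared with 28.3%). For S3 against W the counts were 17 higher (36.2%, compared with 46.5%) and 8 lower (17%, compared with 27.4%). The first and second of these comparisons share the S1 libraries.

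The S3 replicates were not level for these genes. Replicate 2 was the higher one for 40 of the 47 members (85.1%), compared with 59.5% of all tested genes, by a median of 0.23 log2 units against 0.08. In W the count was 25 of 47 (53.2%, compared with 42.9% of all tested genes) and in S1 30 of 47 (63.8%, compared with 57.5%). Without replicate 2 of S3, 2 members were called from S1 to S3, both lower, and neither of the 2 rises was called. Scaling bears on the same step: with median-of-ratios scaling 2 members were called, both lower, in place of 2 higher and 2 lower. In S3 against W, upper-quartile scaling moved the median of all tested genes from 0.16 to -0.04 and their share of higher calls from 60.4% to 47.9%. The median of the members moved with it from 0.10 to -0.11, so that relative to all genes it was -0.05 and -0.08.

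Other genes of chromatin were taken by the words of fixed lists. Of 49 further histone genes 34 were tested, with 1 called higher and 10 lower in S1 against W, 1 higher and 5 lower in S3 against S1, and 2 higher and 14 lower in S3 against W. Of all tested genes, 7.51% were called higher and 1.54% lower in the first comparison, 9.17% and 9.22% in the second, and 13.3% and 8.70% in the third. The median change of the tested histone genes in S1 against W was -0.72 log2 units, where that of the chromatin modifiers was -0.10 and that of all tested genes -0.01. Both genes found by words for SWI/SNF proteins, GRMZM2G148198 and AC233967.1_FG001, are described as SWIb domain proteins and were lower in S3 than in W, by -1.41 (limma adjusted p = 0.00236) and -1.28 (adjusted p = 0.0016). Among 10 jumonji and PHD finger genes 8 were tested, and 1 was called, lower in S3 than in W. Neither of 2 small RNA maker genes, nor the 1 methyl-DNA reader or glycosylase gene, was called.

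The libraries carried the marks of leaf tissue. The 27 genes described as C4 or photosynthetic leaf genes summed to 39494.3 and 24131.5 FPKM in watered leaves, 28734.3 and 28768.2 at S1 and 6656.5 and 10785.3 at S3, with none at 0 in every library. Of 8 root genes 7 and of 24 zein genes 20 were at 0 in every library. The pollen list held 27 genes, some of them described only as profilins, and 10 were at 0 in every library. Its sum was 362 and 338 FPKM in watered leaves, 362 and 422 at S1 and 466 and 454 at S3. Among its 8 tested genes, which include Profilin-4 and Profilin-5, 2 were called higher in S3 than in W, where 13.3% of all tested genes were. The 7 dividing-cell genes, which many chromatin assembly genes accompany in growing tissue, had a low sum that was higher with each condition. It was 5.95 and 5.42 FPKM in watered leaves, 7.57 and 8.59 at S1 and 13.4 and 12.2 at S3. Nearly all of it was 1 PCNA gene, GRMZM2G030523, called higher in S3 than in W by 1.02 (limma adjusted p = 0.00245), 1 of the 7 was at 0 in every library, and 6 of the 7 were below the limit for testing. This sum moved in the same direction as mez2 and nfd104, and its part in their rise was not tested. The sum of the 49 further histone genes was lower after drying. It was 989 and 769 FPKM in watered leaves, 409 and 391 at S1 and 436 and 439 at S3. In S3 against W 14 of the 34 tested histone genes were called lower and 2 higher, compared with 8.70% and 13.3% of all tested genes.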

How the data were processed

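RNA-seq of 6 maize leaf libraries was analysed in 3 conditions (W, S1 and S3) with 2 replicates each, read at slightly different lengths per the study's methods, grouped by the sample labels. The authors aligned reads to B73 RefGen_v2 with bowtie and tophat and deposited FPKM values from cuffdiff, 1 per gene and library. The submitters' processing notes name CASAVA 1.8.2, TopHat 0.12.8 and Cuffdiff. Also deposited were pooled FPKM per condition and the authors' own fold changes and q-values. The latter were not used. S3 came from a second cuffdiff run and was rescaled by 0.9933, the median over genes of mean S1 library FPKM divided by pooled S1 FPKM (91.1% of genes lay within 0.5% of this median). Read depth is not kept in FPKM, so no counting interval is given.

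Genes that reached 1 FPKM in 2 or more libraries (20130 of 39634) were fitted together on log2(FPKM + 1) with limma 3.58.1 in R 4.3.3 (mean-variance trend, two-sided, Benjamini-Hochberg adjustment), after a test on simulated data. Tables and figures used Python 3.11.15, pandas 2.3.3, numpy 2.4.6, scipy 1.17.1 and matplotlib 3.10.9. Short gene names are synonyms in the RefSeq gene table for Zm-B73-REFERENCE-NAM-5.0, used for names only, and 50 of the 51 identifiers matched. GRMZM5G806358 is a synonym of more than one RefSeq gene there. Roles were given by the first match to ordered words in the description.

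The members and lists were chosen with earlier results of these data known. Genes named by rule were each member called in S1 against W, the 10 called members with the largest change (or all, where fewer) in each other comparison, and the most abundant member of each role. All other members were described by role after their values were seen. Alternatives were 3 other scalings, no bridge between runs, other filters, pseudocounts and thresholds, fits of 4 libraries, a replicate block and each library left out.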

Additional observations from a re-analysis of the deposited data

Results flagged for a closer look

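For 4 of 47 tested genes the change from W differed between the third and the first dehydration, where 18.4% of all tested genes did. The test was S3 against S1 in the same limma fit, at a Benjamini-Hochberg adjusted p of at most 0.05. A difference of at least 1 log2 unit was also needed, and these are the calls of that comparison given above. At that adjusted p alone 10 members differed, where 37.1% of all tested genes did. The difference was -1.78 log2 units for GRMZM2G000052, described as a lysine-specific histone demethylase (8.63, 71.6 and 20 mean FPKM in W, S1 and S3). It was -1.49 for mez1 (1.47, 5.17 and 1.21), 1.02 for mez2 (6.64, 8.13 and 17.6) and 1.12 for nfd104 (14.5, 26.7 and 62). With 2 libraries in each condition no library could be tested as standing apart within its group.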

How the results depend on the processing

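Of the 9 calls, the S1 rise and S3 fall of GRMZM2G000052 and the S3 rises over W of mez2 and nfd104 held under all alternatives run, and the other calls were lost under those named with each gene. At an adjusted p of at most 0.01, the S1 rise of mez1 (adjusted p = 0.0284) and the step from S1 to S3 of nfd104 (0.022) were lost too. No called value changed sign under any alternative. In S1 against W, 1 member in place of 2 was called with no filter on low values, with a filter at 5 FPKM (where mez1 was not tested) and at an adjusted p of at most 0.01. From S1 to S3, 2 members in place of 4 were called with median-of-ratios scaling and 10 with no fold-change threshold, and S3 against W gave 8 in place of 3 with no such threshold. With 1 library left out at a time, S1 against W gave 1 or 2 called members, and each of the other comparisons gave 2 to 4. In these fits the lone library of a condition is assumed to vary like the other conditions. With 2 libraries per condition the median 95% interval reached 0.427 log2 units to either side, so smaller changes could be missed. Larger ones could be missed too, since a call needed an adjusted p of at most 0.05 and at least 1 log2 unit. SET102, at -0.57 in S1 against W, missed both limits (limma adjusted p = 0.0561).

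The replicate number was not shown to pair the libraries: deviations of same-numbered libraries from their condition means correlated across genes by 0.14 between W and S1, by -0.09 between W and S3, and by 0.06 between S1 and S3. With the replicate number as a block, 2, 4 and 3 members were called in the 3 comparisons, as without it.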
